A study of Mus musculus with 36 samples.

Results

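RNA bound to oligodendrocyte ribosomes was compared between mice killed in the dark phase and mice killed in the light phase. All animals were adult heterozygous Cnp – eGFP-L10a mice on C57BL/6, in which a green fluorescent protein fused to the ribosomal protein L10a is expressed under the promoter of Cnp, a gene of myelin-forming oligodendrocytes. Immunoprecipitation of the tag from forebrain gave the bound fraction, and the remainder gave the unbound fraction of the same animal. The waking group was killed at about 3 to 5 am in the dark period, after spontaneous wake for at least 70% of the preceding 6 to 7 h. The sleep group was killed at about 3 to 5 pm in the light period, after sleep for at least 75% of the preceding 6 to 7 h. The sleep deprivation group had been awake for most of the dark phase and was then kept awake with unfamiliar objects for 4 h in the light period, with a time of death that the labels do not give. Each group held 6 animals, so 18 bound arrays of 36 arrays in the series entered the comparison. The 6 waking arrays were set against the mean of the sleep and sleep deprivation groups, with equal weight for both, so the dark-minus-light difference is positive where waking was higher. Only the dark-phase group was in spontaneous wake, and dark phase, clock time and behavioural state therefore cannot be told apart. Age in weeks and sex were not given in the labels.

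The mammalian circadian clock is a feedback loop of transcription. Arntl (BMAL1) and Clock, or Npas2, activate the Per and Cry genes through E-box elements, and the PER and CRY proteins then repress their own activators. The nuclear receptors Nr1d1 and Nr1d2 (REV-ERB) repress Arntl and the ROR receptors activate it, while Dbp, Tef, Hlf and Nfil3 pass the rhythm on to output genes. The loop runs in glia as well as in neurons, with each gene peaking at its own time of day.

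Among the core clock genes, Cry1, a repressor, was higher in the dark phase and Nr1d1 was lower. Their promoters, taken from RefSeq (GRCm38.p6) from 250 bases before to 50 bases after the annotated start, are shown because these were the 2 core clock genes called. Capitals mark an E-box, CACGTG. The Cry1 window lies at chr10:85185005-85185304 and the Nr1d1 window at chr11:98775328-98775627, both on the minus strand and both printed 5′ to 3′ in the direction of transcription.
Cry1: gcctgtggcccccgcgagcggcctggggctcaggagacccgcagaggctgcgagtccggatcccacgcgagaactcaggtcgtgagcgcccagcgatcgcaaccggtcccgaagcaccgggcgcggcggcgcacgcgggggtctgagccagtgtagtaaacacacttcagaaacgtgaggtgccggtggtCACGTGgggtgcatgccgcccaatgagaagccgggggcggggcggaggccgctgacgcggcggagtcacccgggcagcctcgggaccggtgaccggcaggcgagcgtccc
Nr1d1: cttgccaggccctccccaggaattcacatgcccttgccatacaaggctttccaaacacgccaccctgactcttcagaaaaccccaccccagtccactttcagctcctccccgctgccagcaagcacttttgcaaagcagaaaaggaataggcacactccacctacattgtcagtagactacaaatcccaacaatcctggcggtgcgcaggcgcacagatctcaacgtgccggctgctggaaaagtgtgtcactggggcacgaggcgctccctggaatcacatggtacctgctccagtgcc
The E-box of Cry1 begins at position -60 from the start. The letters CACGTG, which read the same on both strands, occurred in 7.15% of 32851 mouse promoter windows of this length and in 5 of 21 core clock genes with a window (Per1, Cry1, Ciart, Tef and Bhlhe41). Searches on both strands for the D-box TTATGTAA, the ROR elements TAGGTCA and TGGGTCA, the cAMP response element TGACGTCA and the serum response element found no match in either printed window. Those motifs occurred in 0.938%, 2.61%, 3.98%, 1.79% and 0.0639% of all windows. A match is a description of letters and was not tested as a binding site.

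The bound arrays carried the markers of the cell type that the label names. All 14 measured genes of a myelin and mature oligodendrocyte list had a higher signal in the bound than in the unbound arrays, with a median difference of 2.82 log2, whereas 0 of 15 neuron markers and 0 of 10 microglia markers did. RNA of other cells remained measurable: the mean over neuron markers was 10.86 log2 in bound arrays, against 12.18 log2 in unbound ones. Myelin markers also remained measurable in the unbound arrays, with a mean of 9.98 log2 against 12.80 log2 in the bound ones. Fewer cells of a type and less RNA per cell cannot be told apart in such samples. The mean signal of a bound array averaged 5.93 log2 in waking, 5.92 log2 in sleep and 5.91 log2 in sleep deprivation, and its standard deviation within any of the 6 groups of arrays was at most 0.00994 log2 (n = 6). In 3 animals (waking replicates 3 and 5 and sleep deprivation replicate 11) the mean of 3 Y-linked genes (Eif2s3y, Kdm5d and Uty) was 3.32, 3.07 and 2.64 log2, against 7.47 to 8.34 log2 in the other bound arrays. These animals made up 2 of 6 dark-phase and 1 of 12 light-phase arrays, and the main results are given with and without them.

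Of 13924 genes tested, 615 (4.42%) differed between dark and light phase at a Benjamini-Hochberg adjusted p below 0.05 in limma, 308 higher (2.21%) and 307 lower (2.20%) in the dark. The changes were mostly below 2-fold: the median size among called genes was 0.57 log2, and 70 genes reached 2-fold. When the 3 animals were left out, 168 genes were called, 89 higher and 79 lower. Of these 159 had been called in the same direction with all animals, and all 615 kept their sign. Calls were more frequent among dim genes, with 13.2% called in the dimmest of 10 groups ordered by mean level and between 2.01% and 4.02% in groups 3 to 10. Among the 11383 genes at or above the median probe-set level of the bound arrays (5.33 log2), 356 were called (3.13%), 162 higher (1.42%) and 194 lower (1.70%). A further probe set of the same gene had a difference of the same sign in 121 of 195 called genes that had one (62.1%, exact 95% interval 54.8% to 68.9%), against 56.2% of 6503 genes that were not called. The interval treats genes as independent, although all were measured on the same arrays, so it can be too narrow.

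The contrast pools 2 light-phase groups that themselves differed in 2005 genes (14.4%), with sleep deprivation above sleep in 1048 (7.53%) and below it in 957 (6.87%). Waking differed from sleep in 1318 genes (9.47%), 651 higher (4.68%) and 667 lower (4.79%). Waking differed from sleep deprivation in 698 genes (5.01%), 323 higher (2.32%) and 375 lower (2.69%). Waking was the outermost of the 3 group means in 594 of the 615 called genes and lay between sleep and sleep deprivation in 21. The contrast favours this split, because it selects genes whose waking mean lies far from the mean of the 2 other groups. Sleep deprivation also differed from sleep in 177 of the 615 (28.8%). Among genes called higher in the dark, sleep deprivation was above sleep in 65 and below it in 25. Among genes called lower, sleep deprivation was below sleep in 64 and above it in 23. Waking differed from sleep and from sleep deprivation in 1 direction, with both differences called, in 174 genes (1.25%), 89 of them higher (0.639%) and 85 lower (0.610%). With the 3 animals left out there were 45 such genes, 24 higher and 21 lower. In 104 genes (0.747%) the 6 waking values lay outside the range of all 12 light-phase values, above it in 54 (0.388%) and below it in 50 (0.359%).

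**Figure D1:**
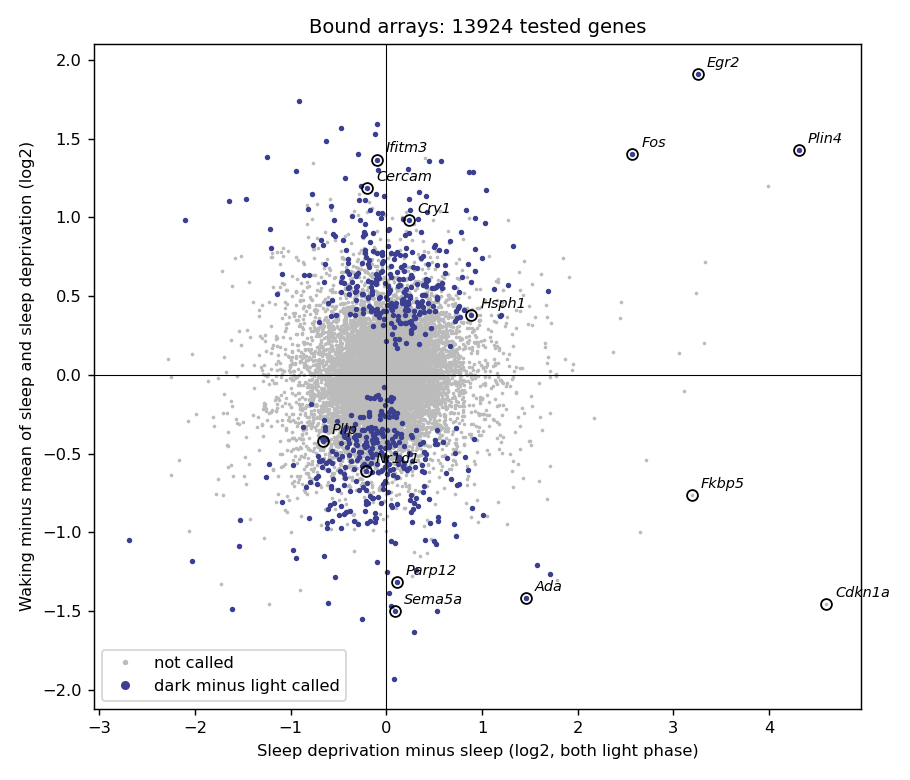
Dark minus light (waking minus the mean of sleep and sleep deprivation, log2, vertical axis) against sleep deprivation minus sleep (log2, horizontal axis) for the 13924 tested genes of the bound arrays, with called genes in blue and some named genes ringed. Cry1, Cercam, Parp12 and Nr1d1 lie between -0.21 and 0.23 log2 on the horizontal axis, while Egr2, Fos and Plin4 lie between 2.57 and 4.31 log2.

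Cry1 had its lowest, median and highest waking values at 9.26, 9.83 and 9.95 log2, against 8.17, 8.70 and 8.89 log2 in sleep and 8.63, 8.84 and 9.28 log2 in sleep deprivation. All 6 waking arrays lay above the light-phase mean, and the ranges met only through the highest sleep deprivation array (replicate 9, 9.28 log2), which passed the lowest waking array. The dark-minus-light difference was 0.98 ± 0.13 log2 (SE), or 1.97-fold, with an adjusted p of 0.000652. It was called against each light-phase group, with 1.10 log2 for waking minus sleep (adjusted p = 0.00021) and 0.87 log2 for waking minus sleep deprivation (adjusted p = 0.00264). Sleep deprivation minus sleep was 0.23 log2 (adjusted p = 0.323). Leaving out the 3 animals gave 0.90 ± 0.16 log2 (adjusted p = 0.0161).

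Nr1d1, which encodes the receptor REV-ERBα that represses Arntl and Cry1, went the other way. Its lowest, median and highest values were 7.95, 8.15 and 8.33 log2 in waking, against 8.67, 8.84 and 9.09 log2 in sleep and 8.47, 8.60 and 8.91 log2 in sleep deprivation. Every waking array lay below every light-phase array. The difference was -0.61 ± 0.09 log2 (1.52-fold lower in the dark, adjusted p = 0.00172), made up of -0.71 log2 against sleep and -0.50 log2 against sleep deprivation, both called. Leaving out the 3 animals gave -0.62 ± 0.12 log2 (adjusted p = 0.0193).

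These were 2 of 25 tested core clock genes, 1 higher and 1 lower, beside 2.21% higher and 2.20% lower over all tested genes, and the other 23 were not called. A count of 2 in 25 is close to that share. Among the activators, Arntl, Arntl2, Clock and Npas2 had differences from -0.17 to 0.08 log2. The repressors other than Cry1 ranged more widely: Per1 had -0.44 ± 0.21 log2 (adjusted p = 0.237), Per3 0.50 ± 0.24 log2 (adjusted p = 0.268), Per2 -0.14 ± 0.24 log2, Cry2 0.15 ± 0.13 log2 and Ciart 0.10 ± 0.18 log2. Waking and light-phase arrays overlapped in all 5. The nuclear receptors Nr1d2, Rora and Rorb had differences of -0.15, -0.01 and -0.18 log2. Among the output factors, Tef, Hlf, Nfil3, Bhlhe40 and Bhlhe41 lay between 0.02 and 0.12 log2, and the kinases and ubiquitin ligases that act on clock proteins (Csnk1d, Csnk1e, Fbxl21, Btrc and Fbxw11) lay between -0.10 and 0.21 log2.

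For some clock genes the pooled light phase averaged groups that differed from each other. Dbp, an output factor, had lowest, median and highest values of 9.32, 9.57 and 9.82 log2 in waking, against 9.89, 10.40 and 11.34 log2 in sleep and 9.30, 9.64 and 9.83 log2 in sleep deprivation. Every waking array was below every sleep array, but waking and sleep deprivation covered the same range. Its pooled difference was -0.45 ± 0.16 log2 (adjusted p = 0.125), with -0.87 log2 against sleep (adjusted p = 0.00623) and -0.03 log2 against sleep deprivation (adjusted p = 0.955). Ciart, a repressor, and Fbxl21, a ligase component, likewise had a pooled difference near 0 while sleep deprivation minus sleep was -0.84 log2 for Ciart (adjusted p = 0.00921) and -1.07 log2 for Fbxl21 (adjusted p = 0.0124). Of 10 genes that follow the clock in many organs, 0 were called, 8 had negative differences and their median was -0.26 log2, beside -0.01 log2 over all tested genes. In that list waking was lower than sleep deprivation, and called, in Tsc22d3, Klf15 and Pdk4, whose waking-minus-sleep values were -0.03, 0.21 and 0.53 log2.

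**Figure D2:**
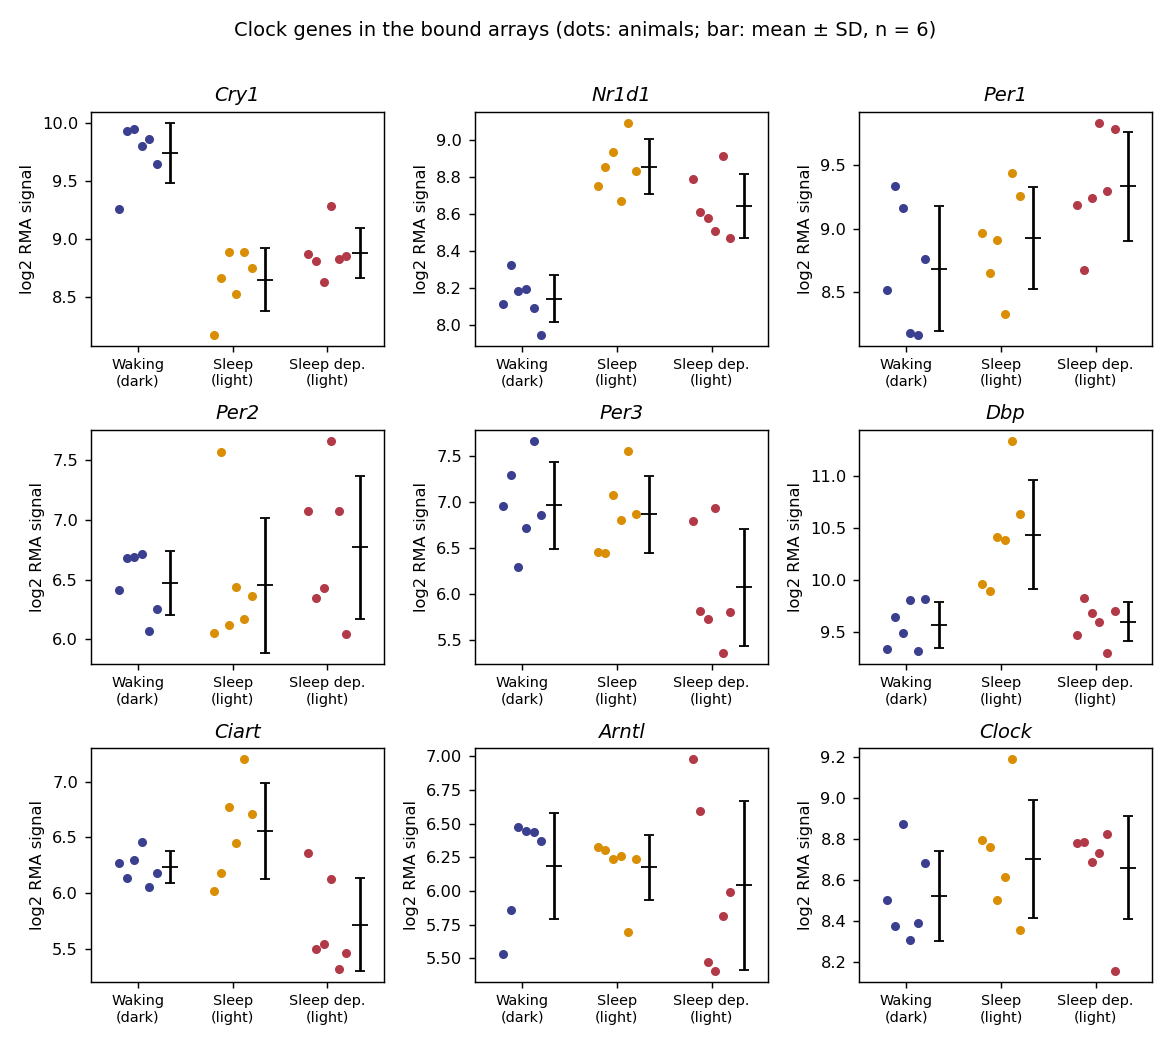
Log2 RMA signal (vertical axes) of 9 clock genes in each bound array, with the waking, sleep and sleep deprivation groups from left to right, 1 dot per animal and bars for the mean ± SD (n = 6). Cry1 is high and Nr1d1 low in waking against both other groups, Dbp is high in sleep alone, and the remaining panels show overlapping waking and light-phase values.

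Among the named genes in which waking stood apart from both light-phase groups, Cercam, Wscd2, Pid1, Mdk and Ifitm3 were higher and Parp12, S100a6, Cklf, Sema5a and Aff2 were lower in the dark, beside Cry1 and Nr1d1. Mean level, bound minus unbound, was negative for Wscd2 (-2.07 log2), Pid1 (-2.38), Mdk (-2.07), Ifitm3 (-3.45), Sema5a (-2.21) and Aff2 (-2.05). It was positive for Cercam (1.61 log2), Cklf (0.97), S100a6 (0.52) and Parp12 (0.19). Which cells gave the signal of these genes was not tested. Cercam, a cell-adhesion molecule gene, had the smallest adjusted p of the named genes. Its lowest, median and highest values were 8.47, 8.77 and 9.07 log2 in waking, against 7.33, 7.77 and 7.96 log2 in sleep and 7.25, 7.41 and 7.99 log2 in sleep deprivation. The waking values did not overlap either light-phase group, and the difference was 1.19 ± 0.13 log2 (2.28-fold, adjusted p = 0.000133). Wscd2 had 6.37, 6.45 and 7.76 log2 in waking, against 4.59, 5.20 and 6.28 log2 in sleep and 5.34, 5.53 and 5.96 log2 in sleep deprivation. Pid1, which encodes a phosphotyrosine-interaction protein, had 6.54, 6.70 and 6.99 log2 in waking, against 4.67, 5.46 and 6.00 log2 in sleep and 5.14, 5.81 and 6.13 log2 in sleep deprivation. Neither gene overlapped between waking and light phase, with differences of 1.31 ± 0.23 log2 (adjusted p = 0.00334) and 1.16 ± 0.19 log2 (adjusted p = 0.00233). Mdk, the heparin-binding growth factor midkine, was higher by 1.03 ± 0.22 log2 (adjusted p = 0.0115) with some overlap. These 4 genes were also called without the 3 animals (adjusted p between 0.00561 and 0.0406).

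Ifitm3, an interferon-induced membrane protein gene, averaged 6.81 ± 0.85 log2 in waking, 5.49 ± 0.86 log2 in sleep and 5.39 ± 0.56 log2 in sleep deprivation (SD, n = 6 each), and its groups overlapped. Its difference of 1.37 ± 0.35 log2 (adjusted p = 0.0307) was not called without the 3 animals (adjusted p = 0.139). The call was also lost on leaving out any one of waking replicates 1, 3, 4 and 6 or sleep deprivation replicate 8, with adjusted p up to 0.0777.

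Lower in waking than in both light-phase groups were Parp12, an ADP-ribosyltransferase gene, and S100a6, which encodes the calcium-binding protein calcyclin. Parp12 had 4.96, 5.77 and 6.27 log2 in waking, against 6.63, 6.90 and 7.19 log2 in sleep and 6.35, 6.93 and 7.59 log2 in sleep deprivation. S100a6 had 7.75, 8.25 and 8.44 log2 in waking, against 8.72, 9.19 and 9.62 log2 in sleep and 8.75, 9.00 and 9.47 log2 in sleep deprivation. Both were without overlap, and they fell by 1.32 ± 0.20 log2 (adjusted p = 0.0012) and by 0.93 ± 0.15 log2 (adjusted p = 0.00172). Cklf, a chemokine-like factor, was 2.83-fold lower (adjusted p = 0.0054), and its 3 further probe sets also had negative differences (-1.46 to -0.36 log2). Sema5a, an axon guidance semaphorin, was 2.82-fold lower (adjusted p = 0.0119), whereas its other 2 probe sets had -0.10 and 0.19 log2 and the mean of its probe sets was not called (-0.26 log2). Aff2, an X-linked gene of a nuclear protein family, fell by 1.39 ± 0.24 log2 (adjusted p = 0.00295). Among the remaining 15 arrays after the 3 animals were left out, Parp12, S100a6 and Sema5a were called, whereas Cklf (-1.15 log2, adjusted p = 0.0869) and Aff2 (-1.17 log2, adjusted p = 0.0616) were not.

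**Figure D3:**
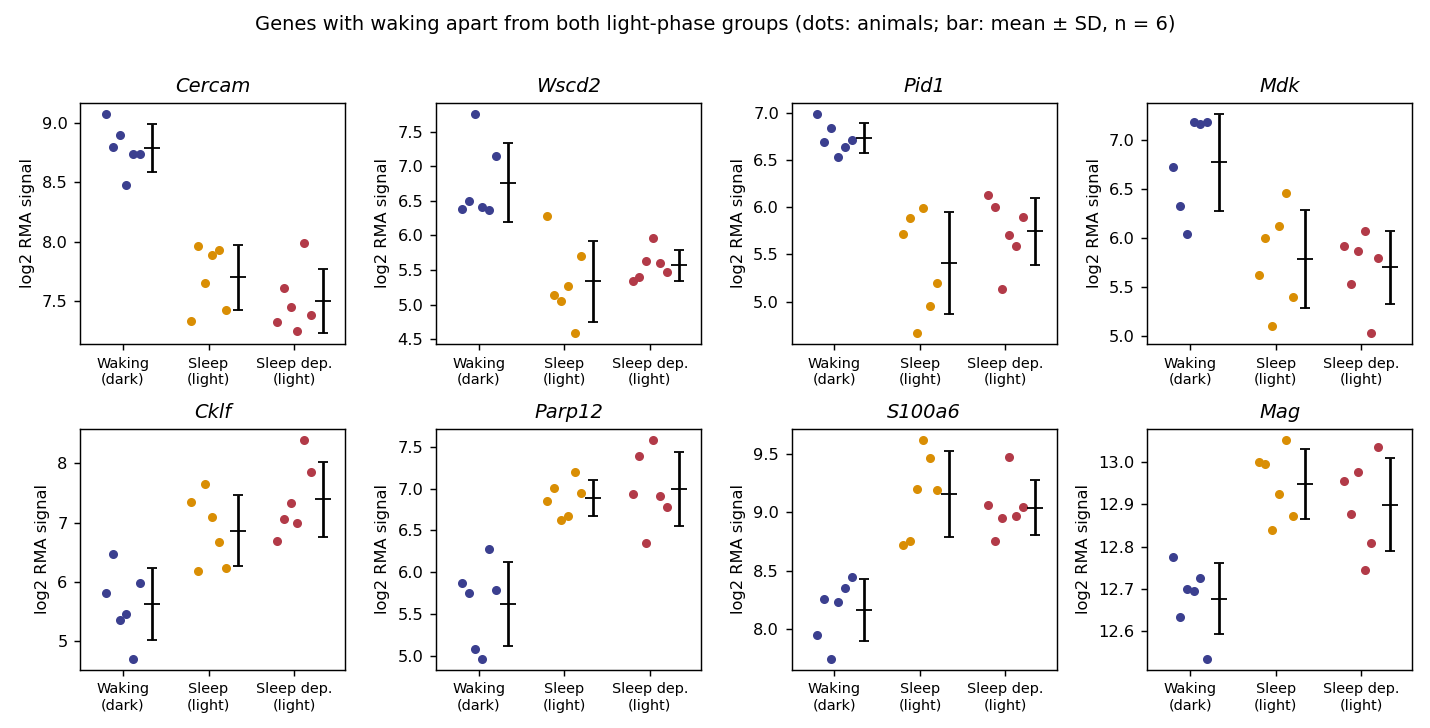
Log2 RMA signal (vertical axes) of 8 genes whose waking group differed from both light-phase groups, with waking, sleep and sleep deprivation from left to right, 1 dot per animal and bars for the mean ± SD (n = 6). Cercam, Wscd2, Pid1, Parp12 and S100a6 show no waking value inside the light-phase range, while Mdk, Cklf and Mag overlap slightly.

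In Egr2, Fos and Plin4 waking was far above sleep and close to sleep deprivation. Egr2, an activity-induced transcription factor, had 6.98, 7.29 and 7.81 log2 in waking, against 3.04, 3.85 and 4.47 log2 in sleep and 5.63, 7.21 and 7.83 log2 in sleep deprivation. The waking and sleep deprivation ranges overlapped almost wholly, and no sleep array reached them. Its pooled difference was 1.91 ± 0.26 log2 (adjusted p = 0.000658), with 3.54 log2 against sleep and 0.28 log2 against sleep deprivation (adjusted p = 0.667). Fos, a subunit of the AP-1 factor, had a pooled 1.40 ± 0.23 log2 (adjusted p = 0.00248), with 2.69 log2 against sleep and 0.12 log2 against sleep deprivation. Plin4, a lipid-droplet coat protein, had 1.43 ± 0.29 log2 (adjusted p = 0.00796), with 3.58 log2 against sleep, whereas against sleep deprivation waking had -0.73 log2 (adjusted p = 0.219). Plin4 was not called without the 3 animals (1.12 log2, adjusted p = 0.0931).

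Sox1 and Gsta3 had sleep deprivation means between those of waking and sleep, and waking minus sleep deprivation was not called (0.86 log2, adjusted p = 0.0577, and 1.07 log2, adjusted p = 0.0804). Sox1, a neural transcription factor, averaged 7.24 ± 0.48 log2 in waking, 5.52 ± 0.27 log2 in sleep and 6.38 ± 0.59 log2 in sleep deprivation (SD, n = 6 each), with a difference of 1.29 ± 0.22 log2 (adjusted p = 0.00288). The other probe set of Sox1 had -0.24 log2, and its mean level was lower in bound than in unbound arrays (-2.24 log2). Gsta3, a glutathione transferase gene, was higher by 1.36 ± 0.30 log2 (adjusted p = 0.0135, and 0.16 without the 3 animals).

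In some of the named falls, sleep deprivation stood apart from both waking and sleep. Ada, the adenosine-degrading enzyme adenosine deaminase, had 6.59, 7.87 and 8.39 log2 in waking, against 7.42, 8.42 and 9.17 log2 in sleep and 8.40, 9.79 and 11.11 log2 in sleep deprivation. Waking and sleep overlapped, and every sleep deprivation array lay above every waking array. The pooled fall of 1.42 ± 0.40 log2 came with -0.69 log2 against sleep (adjusted p = 0.377) and -2.15 log2 against sleep deprivation (adjusted p = 0.0104). The calls of Ada (-1.42 log2, adjusted p = 0.0482), Zfp939, a zinc-finger gene (-1.21 log2, adjusted p = 0.0496), Sned1, an extracellular matrix gene (-1.19 log2, adjusted p = 0.037), and Hspa1l, an Hsp70-family gene (1.29 log2, adjusted p = 0.0431), were close to the threshold. They were lost on leaving out any one of 14, 15, 10 and 11 of the 18 arrays in that order of genes, with adjusted p up to 0.125, and without the 3 animals.

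**Figure D4:**
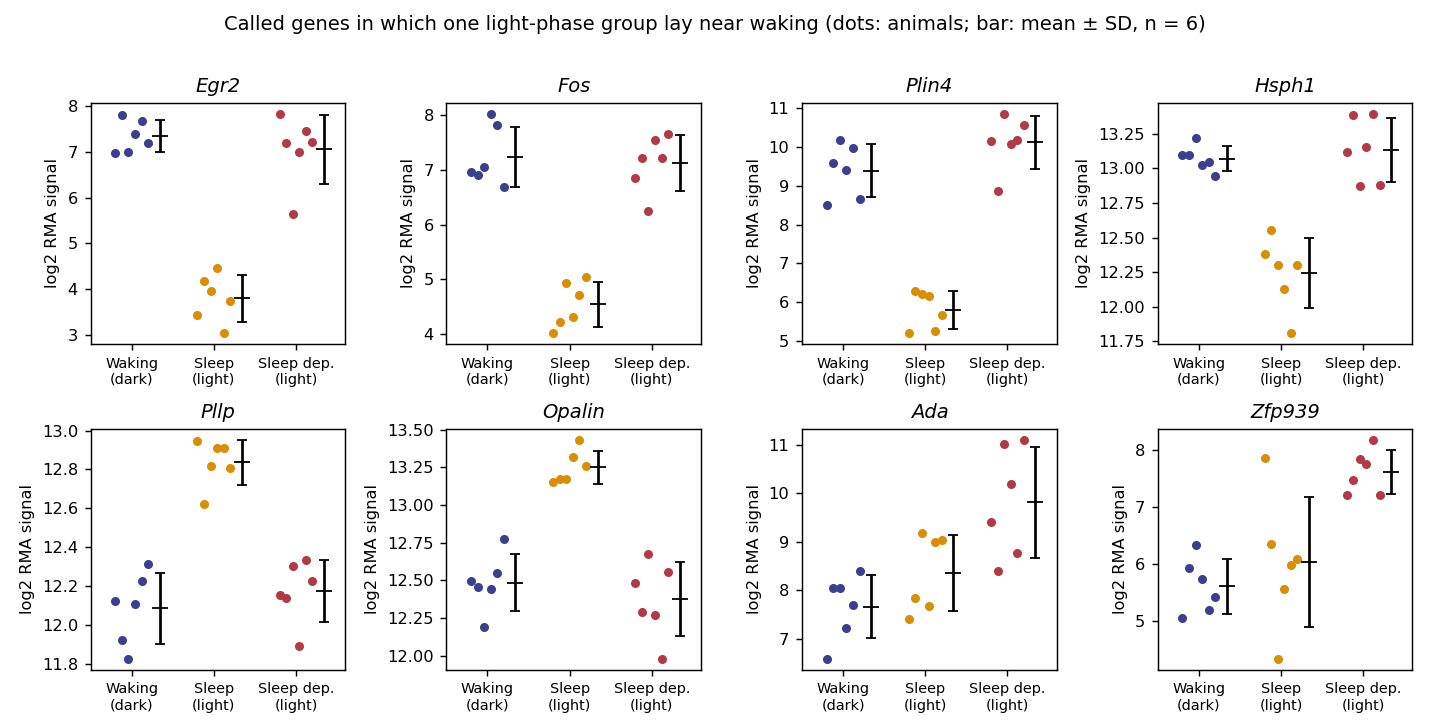
Log2 RMA signal (vertical axes) of 8 called genes in which 1 light-phase group lay near waking, with waking, sleep and sleep deprivation from left to right, 1 dot per animal and bars for the mean ± SD (n = 6). Egr2, Fos, Plin4 and Hsph1 are low in sleep alone, Pllp and Opalin are high in sleep alone, and Ada and Zfp939 are highest in sleep deprivation.

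Immediate-early genes, transcription and signalling genes that neuronal activity or growth factors switch on quickly, had 5 of 21 members called higher and 0 lower, beside 2.21% of all tested genes called higher: Fos, Egr1, Egr2, Nr4a1 and Npas4. The list median was 0.14 log2. Against sleep 10 members were higher and 1 was lower in waking, while against sleep deprivation 0 were higher and 4 were lower (Fosl2, Egr3, Dusp1 and Homer1). Egr1 was higher by 0.57 ± 0.12 log2 (adjusted p = 0.01), Npas4 by 0.62 ± 0.11 log2 (adjusted p = 0.00461) and Nr4a1 by 0.53 ± 0.12 log2 (adjusted p = 0.0126). Npas4 was dim, with a bound mean of 3.92 log2. That is below the bound filter level of 4.47 log2, so it was tested through its unbound level. Most of these genes had more signal in the unbound than in the bound fraction, with a list median of -1.67 log2 for bound minus unbound. With the 3 animals left out Fos, Egr1, Egr2, Npas4 and also Fosb were called, and Nr4a1 was not (adjusted p = 0.0569).

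Heat shock chaperones had 2 of 18 members called, Hsph1 (0.38 ± 0.09 log2, adjusted p = 0.0244) and Chordc1 (0.37 ± 0.10 log2, adjusted p = 0.0458), beside 2.21% of all tested genes called higher, and a list median of 0.21 log2. Hsph1, an Hsp110 chaperone, averaged 13.07 ± 0.09 log2 in waking, 12.25 ± 0.25 log2 in sleep and 13.13 ± 0.23 log2 in sleep deprivation (SD, n = 6 each). Against sleep 11 members were higher in waking, beside 4.68% of all tested genes, and against sleep deprivation 0 were called in either direction. The call of Hsph1 was lost with the mean of its probe sets (0.28 log2, adjusted p = 0.0818) and on leaving out waking replicate 1, 2 or 3 (adjusted p up to 0.0676), that of Chordc1 on leaving out any one of 15 arrays (up to 0.111), and both without the 3 animals. Genes of the glucocorticoid response, the programme set off by stress hormone, had 1 of 17 members called higher (Plin4, beside the same 2.21%), 0 called lower and a median of -0.25 log2. Waking was higher than sleep in 4 members and lower than sleep deprivation in 8, including Fkbp5, a receptor co-chaperone (7.66 log2 in waking, 6.83 log2 in sleep and 10.03 log2 in sleep deprivation), and Cdkn1a, a cell-cycle inhibitor (8.36, 7.51 and 12.11 log2 in the same groups). Of 19 genes of the unfolded protein response 0 were called.

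Myelin and mature oligodendrocyte genes had 4 of 14 members called lower and 0 higher, beside 2.20% of all tested genes called lower, with a list median of -0.08 log2. Mag, the myelin-associated glycoprotein of the inner myelin membrane, had 12.53, 12.70 and 12.78 log2 in waking, against 12.84, 12.96 and 13.05 log2 in sleep and 12.74, 12.92 and 13.04 log2 in sleep deprivation. It overlapped with the light phase through a single sleep deprivation array and was lower than both groups (-0.27 and -0.22 log2, pooled -0.25 ± 0.05 log2, adjusted p = 0.00531). Pllp (plasmolipin) and Opalin, myelin membrane proteins, were instead low in waking and sleep deprivation alike. Pllp averaged 12.09 ± 0.18 log2 in waking, 12.84 ± 0.12 log2 in sleep and 12.17 ± 0.16 log2 in sleep deprivation (SD, n = 6 each), with a pooled -0.42 ± 0.07 log2 (adjusted p = 0.00316). Opalin had -0.77 log2 against sleep and 0.11 log2 against sleep deprivation, pooled -0.33 ± 0.09 log2 (adjusted p = 0.0367). Cnp, whose promoter drives the tag, differed by -0.08 ± 0.02 log2 (adjusted p = 0.0251), and that call was lost without waking replicate 3, 5 or 6 (adjusted p up to 0.0583). Mag and Pllp were called without the 3 animals, whereas Opalin (adjusted p = 0.215) and Cnp (adjusted p = 0.169) were not. Rpl10a, the other gene of the transgene, had 0.00 ± 0.09 log2. In the unbound arrays Mag (-0.54 log2, limma adjusted p = 0.0054) and Cnp (-0.13 log2, adjusted p = 0.0249) were also called lower. Pllp was not (-0.03 log2, adjusted p = 0.937). The difference between fractions was not called for Mag, Cnp or Pllp (adjusted p = 0.214, 0.753 and 0.158).

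Among regulators of the oligodendrocyte lineage, 3 of 14 were called higher and 1 lower, beside 2.21% and 2.20% of all tested genes. Nkx6-2, a homeodomain factor of maturing oligodendrocytes, was higher than both light-phase groups (pooled 0.31 ± 0.06 log2, adjusted p = 0.00952). Yy1, a zinc-finger factor needed for oligodendrocyte differentiation, was higher by 0.38 ± 0.06 log2 (adjusted p = 0.0025), with 0.56 log2 against sleep and 0.21 log2 against sleep deprivation (adjusted p = 0.108). Nkx2-2 was higher by 0.38 ± 0.10 log2 (adjusted p = 0.0291), with 0.12 log2 against sleep and 0.65 log2 against sleep deprivation. Olig1, a basic helix-loop-helix factor, was lower by 0.14 ± 0.04 log2 in the dark (13.05 log2 in waking, 13.16 log2 in sleep and 13.21 log2 in sleep deprivation, adjusted p = 0.04). After leaving out the 3 animals Yy1 was the 1 member called, and the call of Nkx2-2 was lost without waking replicate 1, 3, 4 or 5 (adjusted p up to 0.078). The mean of all probe sets of Yy1 had 0.20 log2 and was not called.

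Oligodendrocyte precursor genes had 0 of 14 members called, and cholesterol synthesis (19 genes), phospholipid synthesis (22), fatty acid and sphingolipid synthesis (21), cytosolic ribosomal proteins (18) and oxidative phosphorylation (28) also had 0. Their medians lay between -0.08 and 0.12 log2. Beside 2.21% of all tested genes, 1 of 17 in the cell cycle list was called higher, the cyclin Ccnd2, which was higher without overlap (9.11 ± 0.11 log2 in waking, 8.49 ± 0.32 log2 in sleep and 8.67 ± 0.13 log2 in sleep deprivation, SD, n = 6 each, adjusted p = 0.0119, and 0.0725 without the 3 animals). The mean of its probe sets had 0.21 log2 and was not called. In the apoptosis list 1 of 14 was called, Pmaip1, at a dim 3.25 log2 in waking, 2.41 log2 in sleep and 3.00 log2 in sleep deprivation (adjusted p = 0.0412, lost on leaving out any one of 10 arrays). Cirbp, an RNA-binding protein induced by cold, had 10.26 log2 in waking, 11.64 log2 in sleep and 10.02 log2 in sleep deprivation, and its pooled -0.57 ± 0.18 log2 was not called (adjusted p = 0.0804).

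Markers of other cell types were set beside these genes because the precipitate held some of their RNA. Neuron (15 genes), endothelium (4), mural cell (5), choroid plexus and ependyma (7) and red blood cell (2) lists had 0 members called, with medians from -0.32 to 0.16 log2. The astrocyte list had 1 of 14 called, Gjb6, a connexin gene (0.65 ± 0.18 log2, adjusted p = 0.043, lost on leaving out any one of 12 arrays), 11 positive members and a median of 0.15 log2. The microglia list also had 1 of 10 called higher, beside 2.21% of all tested genes, the fractalkine receptor Cx3cr1 (0.51 ± 0.11 log2, adjusted p = 0.0141), 8 positive members and a median of 0.19 log2. The mean over astrocyte markers ranged from 7.56 to 8.30 log2 in waking, 7.50 to 7.99 log2 in sleep and 7.45 to 8.23 log2 in sleep deprivation. Over microglia markers it ranged from 5.26 to 6.11 log2 in waking, 5.09 to 5.63 log2 in sleep and 4.97 to 5.55 log2 in sleep deprivation. Their part in the gene changes above was not tested.

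**Figure D5:**
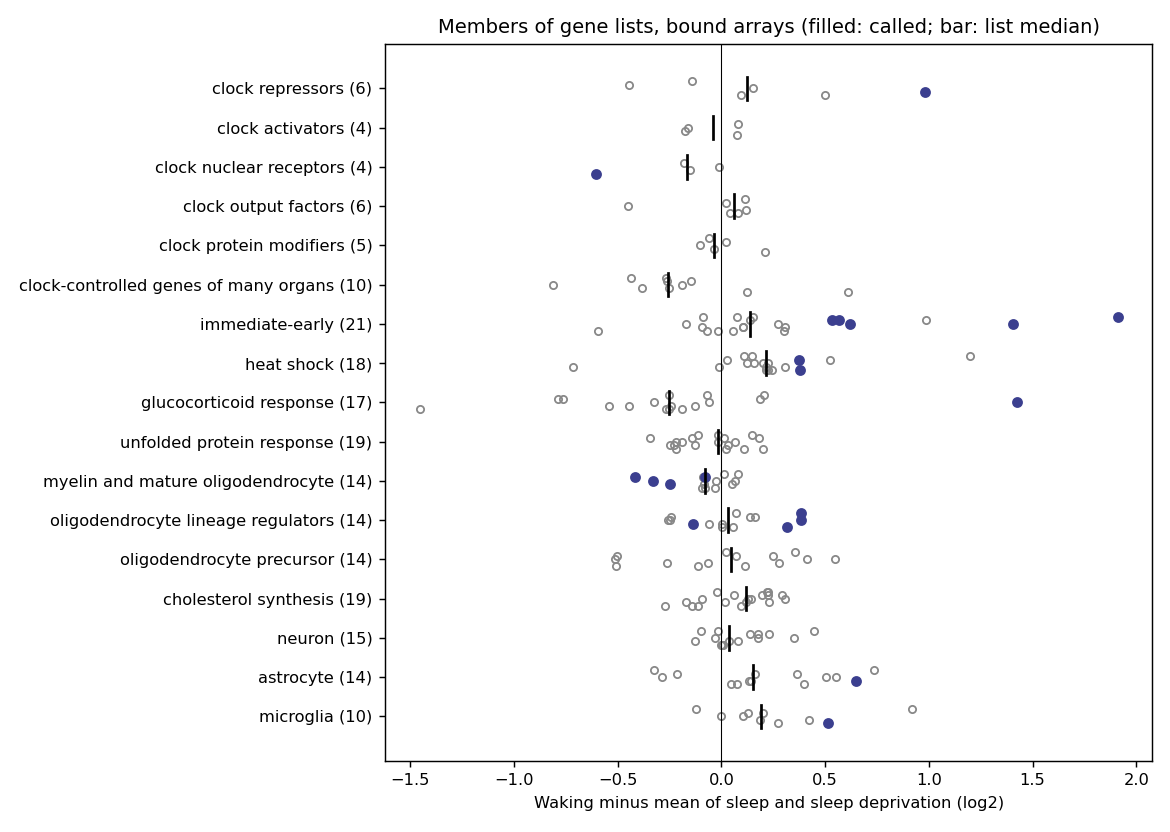
Dark minus light (log2, horizontal axis) of each tested member of 17 gene lists in the bound arrays, with the number of members in brackets, filled points for called genes and a black bar at the list median. Called members stand at both ends of the clock lists (Cry1 and Nr1d1), to the right in the immediate-early list and to the left in the myelin list, and the list medians lie between -0.26 and 0.21 log2.

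The unbound fraction of the same animals showed how far these differences were shared. There 1238 genes were called between dark and light (8.89%), 149 higher (1.07%) and 1089 lower (7.82%), with a median of all genes of -0.10 log2. With quantile normalization over all 36 arrays the split was 242 higher and 241 lower. Of the 615 genes called in the bound arrays, 90 were called in the unbound arrays too (14.6%, beside 8.89% of all tested genes). Of these, 58 had the same direction (9.43% of the bound and 4.68% of the unbound calls) and 32 the opposite direction, and 344 of the 615 had the same sign in the unbound arrays. The dark-minus-light difference itself differed between bound and unbound arrays of an animal in 648 genes (4.65%). Bound minus unbound was positive in 493 (3.54%) and negative in 155 (1.11%), and after quantile normalization over all 36 arrays in 251 and 237 genes. Of 1245 genes with at least 2-fold more signal in the bound fraction, 70 were called between dark and light (5.62%), 21 higher and 49 lower. Of 3766 genes with at least 2-fold less signal there, 193 were called (5.12%), 122 higher and 71 lower. Both total shares were near that of all tested genes, 4.42%. The directions were less even than over all tested genes, where 2.21% were higher and 2.20% lower. Lower calls outnumbered higher ones among the genes with more bound signal, and higher calls outnumbered lower ones among those with less. Why the directions differed was not tested.

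Cry1 and Nr1d1 moved in the unbound arrays too. Cry1 had 8.84, 9.13 and 9.75 log2 as lowest, median and highest values in unbound waking arrays, against 8.30, 8.52 and 8.74 log2 in sleep and 8.72, 8.90 and 9.09 log2 in sleep deprivation. Its unbound difference of 0.45 log2 was called (adjusted p = 0.0207), and the bound difference was larger by 0.53 ± 0.14 log2 (adjusted p = 0.0347). That extra rise was not called with quantile normalization over all 36 arrays or without the 3 animals. It was also not called in a limma fit without the animal pairing (adjusted p = 0.0629). Nr1d1 had an unbound difference of -0.42 log2 (adjusted p = 0.0174), and bound minus unbound was -0.19 ± 0.13 log2 (adjusted p = 0.45). Per2 was called higher in the unbound arrays alone (0.89 log2, adjusted p = 0.0108), with a difference between fractions of -1.03 ± 0.27 log2 (adjusted p = 0.0361). Without the animal pairing the difference of Per2 between fractions was not called (adjusted p = 0.0533). Npas2 and Hlf were likewise called in the unbound arrays (0.57 and 0.38 log2, adjusted p = 0.00125 and 0.0102), and their difference between fractions was not called (adjusted p = 0.124 and 0.521). With quantile normalization over all 36 arrays that of Npas2 was called (-0.61 log2, adjusted p = 0.0474), and those of Cklf (adjusted p = 0.0599) and Hsph1 (adjusted p = 0.072) were not.

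Of the 14 named genes with waking apart from both light-phase groups, 8 had a called difference between fractions: Cry1, Cercam, Wscd2, Pid1, Mdk, Ifitm3, Cklf and Sema5a. The other 6 were Nr1d1, Parp12, S100a6, Aff2, Mag and Nkx6-2. Cercam had an unbound difference of -0.25 log2, and its bound difference exceeded that by 1.44 ± 0.24 log2 (adjusted p = 0.00254). Pid1 exceeded it by 1.40 ± 0.20 log2 (adjusted p = 0.000862) and Plin4 by 1.67 ± 0.24 log2 (adjusted p = 0.000916). For Fos the bound value of 1.40 log2 and the unbound value of 1.39 log2 differed by 0.01 ± 0.31 log2. The largest called positive values of bound minus unbound were those of Ifitm3 (2.08 log2), Msrb3, a methionine sulfoxide reductase gene (2.04 log2), Olfml2b (1.94 log2) and Hyls1 (1.80 log2). In each the unbound difference was negative (-1.30 to -0.71 log2). The largest negative values were those of St3gal1, a sialyltransferase gene (-1.58 log2), Tbc1d2b (-1.54 log2), Rmdn2 (-1.45 log2) and Cklf (-1.33 log2). Cklf fell more in bound (-1.50 log2) than in unbound arrays (-0.17 log2). Among these genes Ifitm3, Msrb3 and Cklf were called in the bound contrast. Msrb3 lost that call with the mean of its probe sets (0.24 log2, adjusted p = 0.275), and its other probe set had -0.38 log2. Leaving out the 3 animals, 13 of the 21 named genes with a called difference between fractions lost that call (Ifitm3, Wscd2, Sox1, Cklf, Sema5a, Per2, Cry1, Hsph1, Yy1, Olfml2b, Hyls1, St3gal1 and Tbc1d2b), whereas Cercam, Pid1, Plin4 and Msrb3 were among the 8 that were still called.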

How the data were processed

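Both fractions of 18 animals were measured on expression arrays. The authors deposited log2 signals per probe set, made with RMA per the submitters' processing notes (version not given in the sources used here), and these were used without further normalization. Group-wise or joint RMA is not stated, and mean signals of waking arrays lay outside the range of the light-phase arrays of their fraction, so group and normalization cannot be told apart at that scale. Of 45101 probe sets, 34945 named 1 gene. The probe set with the highest mean over 36 arrays stood for each of 18193 genes, and 13924 genes were tested, those with a mean of at least 4.47 log2 in the bound or 5.18 log2 in the unbound arrays (40th percentiles over probe sets).

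A group-means model was fitted to the 18 bound arrays with limma 3.58.1 (R 4.3.3, with data.table version 1.17.8), letting the prior variance follow mean signal. Benjamini-Hochberg adjustment ran over all tested genes, with a threshold of 0.05. Errors are standard errors unless given as SD. Differences between fractions were fitted on bound minus unbound of each animal, a pairing that comes from the design text. Within an animal, deviations from the group means correlated between its fractions by -0.0032 to 0.0848. The script was tested on simulated data. The number of arrays limits the precision, and p-values rest on the spread between animals within groups (n = 6 each). That spread was pooled over the groups and moderated across genes. Figures were drawn with matplotlib 3.10.9 under Python 3.11.15, from tables read with pandas 2.3.3.

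The 29 gene lists (391 genes, 347 tested), the contrast and the tests were chosen with earlier results of these data known. Named genes were the 8 largest rises and falls among called genes at or above the median level, the 5 and 5 with the largest value of the smaller difference among genes apart in waking, all core clock genes, up to 3 called members of each other list, the 4 and 4 largest called differences between fractions, and Cnp and Rpl10a, leaving out uncharacterised symbols. One gene that this rule names is not reported here. Other list members and the brightest genes were named after their values were seen. Alternatives were 2 quantile normalizations, other filters, the mean of a gene's probe sets, moderation without trend, array weights, a replicate block, single light-phase groups, and leaving out each array or the 3 animals.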

Additional observations from a re-analysis of the deposited data

Results flagged for a closer look

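In 5 of 195 groups of 6 bound arrays examined, 1 array lay far from the rest, and chance flags about 1 in 20 groups. They were Arntl in sleep replicate 5 (5.69 log2, low), Clock in sleep deprivation replicate 11 (8.15 log2, low), Per2 in sleep replicate 2 (7.57 log2, high), Cry1 in sleep deprivation replicate 9 (9.28 log2, high) and Tbc1d2b in sleep deprivation replicate 9 (8.34 log2, high). Cry1 was called without that array as with it, and Tbc1d2b was called without it (-0.76 log2, adjusted p = 0.0266) but not with it.

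For 21 of 65 named genes the dark-minus-light difference itself differed between the bound and unbound arrays of the same animals. Bound minus unbound was positive for Ifitm3 (2.08 log2), Msrb3 (2.04), Olfml2b (1.94), Hyls1 (1.80), Plin4 (1.67), Sox1 (1.49), Cercam (1.44) and Pid1 (1.40). It was also positive for Wscd2 (1.36 log2), Mdk (1.27), Gjb6 (0.97), Cry1 (0.53), Yy1 (0.52), Chordc1 (0.49) and Hsph1 (0.38). It was negative for St3gal1 (-1.58 log2), Tbc1d2b (-1.54), Rmdn2 (-1.45), Cklf (-1.33), Sema5a (-1.30) and Per2 (-1.03). The sign does not give the size of change: Cklf and Sema5a fell more in bound (-1.50 log2 each) than in unbound arrays (-0.17 and -0.19 log2).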

How the results depend on the processing

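The 615 genes called between dark and light became 2006 without a filter on low values, 231 when only genes at or above the median bound level were tested, 168 without the 3 animals and 1318 for waking minus sleep alone. The 174 genes apart in waking became 670, 56 and 45 under the first 3 of these settings. The 648 differences between fractions became 242 without the 3 animals, a setting chosen for them after seeing the data. Quantile normalization of the 18 bound arrays gave 625 called genes, and over all 36 arrays 634. Leaving out 1 array gave 410 to 663 called genes and 119 to 172 genes apart in waking. The replicate block, by label number, gave 743 and 195 genes, and without the animal pairing the differences between fractions were 665. Without that pairing Cklf, Per2, Cry1, St3gal1 and Rmdn2 lost their called difference between fractions. Same-numbered waking and sleep arrays are different animals, and their deviations correlated by -0.000946 to 0.0868, none above 0.1. Bound and unbound arrays of the same animal, which are pairs by design, correlated no more clearly (-0.0032 to 0.0848). The correlations therefore cannot show whether the label numbers pair the samples. For waking minus sleep deprivation alone, Plin4 (-0.73 log2), Hsph1 (-0.064 log2) and Chordc1 (-0.22 log2) turned sign. Without the 3 animals 17 of 36 called named genes were no longer called, with fewer arrays in the fit. Quantile normalization ended the calls of Ada, Cnp and Pmaip1, and over all 36 arrays that of Zfp939 too. The mean of all probe sets ended the calls of Sema5a, Hsph1, Yy1, Ccnd2 and Msrb3. Single arrays were left out for the genes of the naming rule alone. The cause was not tested for the other changes. Signal near background limits the dim genes, and the sources used here do not say whether groups were normalized separately.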

Other observations

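Among genes with a strong signal, at or above a mean of 10 log2 in the bound arrays, 98 of 2802 were called between dark and light (3.50%), 36 higher and 62 lower. Over all tested genes 4.42% were called, 2.21% higher and 2.20% lower. The 10 with the smallest p were chosen after their values were seen, and they include Pllp and Yy1. Zfp553, a zinc-finger gene, averaged 11.21 ± 0.20 log2 in waking, 10.25 ± 0.17 log2 in sleep and 10.77 ± 0.10 log2 in sleep deprivation (SD, n = 6 each), a difference of 0.70 ± 0.08 log2 (limma, adjusted p = 0.000296). Ndrg2, a stress-responsive gene of the Ndrg family, averaged 12.69 ± 0.10 log2 in waking, 12.28 ± 0.12 log2 in sleep and 12.41 ± 0.11 log2 in sleep deprivation, and Tmcc2 was higher by 0.26 ± 0.04 log2. Hnrnpul2, a nuclear RNA-binding protein gene, was higher by 0.40 ± 0.07 log2, with 0.60 log2 against sleep and 0.21 log2 against sleep deprivation.

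Lower in the dark were Anks1b (-0.37 ± 0.05 log2), Park7, which encodes the oxidative stress protein DJ-1 (-0.28 ± 0.04 log2), Il33, an alarmin cytokine (-0.24 ± 0.04 log2), and Dbi, the acyl-CoA-binding protein (-0.17 ± 0.02 log2). Dbi averaged 13.49 ± 0.04 log2 in waking, 13.64 ± 0.03 log2 in sleep and 13.69 ± 0.03 log2 in sleep deprivation (SD, n = 6 each). The waking arrays of Anks1b, Dbi, Park7, Ndrg2 and Tmcc2 did not overlap the light-phase arrays. Further probe sets had the same sign in 5 of 5 for Anks1b, 3 of 3 for Dbi and 1 of 1 for Park7. The 1 further probe set also had the same sign for Zfp553 (0.12 log2), Tmcc2 (0.13 log2) and Hnrnpul2 (0.23 log2), with smaller differences. For Yy1 it was 2 of 3, from -0.23 to 0.39 log2. All 10 genes were also called without the 3 animals, with adjusted p up to 0.049. Dbi, Park7 and Il33 were lower in the unbound arrays too (-0.21, -0.15 and -0.36 log2, each called).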
